A study of Mus musculus with 8 samples.

Results

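Transcript levels of 52 mouse genes that act in mitosis were compared in cultured embryonic fibroblasts with different forms of TAF4, one of the proteins of TFIID, which places RNA polymerase II at promoters. The genes form a named list of cell division factors, and their deposited FPKM values were summed per gene. All 52 were found among the 23281 genes listed, and all 52 were among the 12025 genes that passed the filter on low values and were tested. FPKM is the number of fragments per kilobase of transcript, scaled to the fragments of the library, so that levels of different genes can be set side by side.

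Messenger RNA was sequenced as 8 libraries of mouse embryonic fibroblasts of the strain C57BL/6, in 4 groups of 2. The TAFH-deleted rescue consists of clones 1 and 2 of Taf4 -/- cells that carry a human TAF4 transgene, hTAF4 Δ, without the TAFH domain, a conserved part of TAF4 that binds other regulators of transcription. The wild-type rescue consists of clones 1 and 2 of Taf4 -/- cells with the human transgene hTAF4 wt (called wild-type clones here). The knockout libraries come from Taf4 -/- cells without a transgene, and the control libraries from Taf4 loxp/- cells, which other label fields call wild type. All groups other than the control therefore lack the mouse gene according to the labels. The promoter of the transgenes, their copy number and the way the clones arose are not given in the sources used here, so the form of TAF4 and the origin of a clone cannot be told apart.

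In mitosis, cyclin-dependent kinase 1 and its cyclins start the division, and the chromosomes condense and attach through their kinetochores to the spindle. The spindle checkpoint holds the cell until all are attached, after which the anaphase-promoting complex destroys securin and cyclin B and cytokinesis divides the cell. The genes for these proteins are transcribed late in the cell cycle. Their promoters are known for the cell cycle genes homology region, a short element bound by the MuvB complexes, which repress as DREAM in resting cells and activate together with B-Myb and FoxM1 in dividing cells. Many also carry CCAAT boxes, which NF-Y binds.

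Promoter sequences were read from a RefSeq table of GRCm38.p6, which held 47 windows for 44 of the 52 mitosis genes. The table has no window for Ccna2, Cdc25c, Foxm1, Aurkb, Incenp, Tpx2, Kif20a or Smc4. The stretches printed run from 170 bases before to 30 bases after the annotated start, 5′ to 3′ on the strand of the gene. They belong to the mitosis genes with the smallest p between the rescue forms, for which a window exists, and to Ccnb1, Cdk1 and Plk1 as core mitotic regulators. Capitals mark TTTGAA and its variant TTTAAA, the letters of the homology region, and CCAAT, each searched on both strands, so that CCAAT on the opposite strand reads ATTGG and TTTGAA reads TTCAAA. The motifs cannot overlap by more than a few letters and were counted separately.
Cdca3, chr6:124830006-124830205, strand +: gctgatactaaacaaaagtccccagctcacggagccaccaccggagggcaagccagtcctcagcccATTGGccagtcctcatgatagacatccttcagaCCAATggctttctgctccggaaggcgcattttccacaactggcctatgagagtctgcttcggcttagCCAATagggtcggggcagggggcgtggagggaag
Kif23, chr9:61946770-61946969, strand -: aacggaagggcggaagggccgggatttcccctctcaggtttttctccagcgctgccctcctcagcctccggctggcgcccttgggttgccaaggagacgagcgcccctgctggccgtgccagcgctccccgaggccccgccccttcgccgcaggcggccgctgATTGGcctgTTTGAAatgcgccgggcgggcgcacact
Birc5, chr11:117849067-117849266, strand +: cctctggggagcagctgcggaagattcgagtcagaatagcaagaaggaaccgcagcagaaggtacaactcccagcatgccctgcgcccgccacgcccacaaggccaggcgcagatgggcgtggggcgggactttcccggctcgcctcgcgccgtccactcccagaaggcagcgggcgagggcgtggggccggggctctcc
Bub1, chr2:127831830-127832029, strand -: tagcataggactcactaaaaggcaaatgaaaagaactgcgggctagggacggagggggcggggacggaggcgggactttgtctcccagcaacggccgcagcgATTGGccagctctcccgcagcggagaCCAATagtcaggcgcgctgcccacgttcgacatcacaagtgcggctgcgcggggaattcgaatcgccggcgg
Ccnb1, chr13:100786457-100786656, strand -: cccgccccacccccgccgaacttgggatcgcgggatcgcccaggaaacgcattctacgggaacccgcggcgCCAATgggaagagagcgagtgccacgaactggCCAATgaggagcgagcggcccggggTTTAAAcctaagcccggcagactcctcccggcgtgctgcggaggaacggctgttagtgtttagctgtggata
Cdk1, chr10:69352883-69353082, strand -: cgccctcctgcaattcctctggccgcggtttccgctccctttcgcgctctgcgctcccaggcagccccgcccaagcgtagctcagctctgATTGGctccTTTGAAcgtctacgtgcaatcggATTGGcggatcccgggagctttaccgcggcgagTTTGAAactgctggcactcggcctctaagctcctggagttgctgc
Plk1, chr7:122159265-122159464, strand +: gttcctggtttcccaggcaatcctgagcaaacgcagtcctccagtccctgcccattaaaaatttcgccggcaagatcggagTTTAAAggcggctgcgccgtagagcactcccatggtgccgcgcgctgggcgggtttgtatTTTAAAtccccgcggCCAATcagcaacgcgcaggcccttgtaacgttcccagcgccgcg

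Cdk1 has TTTGAA at 2 places beside its CCAAT boxes, Kif23 has 1 just after its start, and Ccnb1 and Plk1 have the TTTAAA variant. The Birc5 stretch holds none of these letters, and those of Cdca3 and Bub1 hold CCAAT but not TTTGAA. In the full windows of Cdca3 and Plk1, TTTGAA begins at +31, just past the printed stretch. In the full window of Birc5, TTTAAA begins at -220, before the printed stretch.

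Over the full windows, from 250 bases before to 50 bases after the start, TTTGAA was found in 35 of 47 windows of mitosis genes (74.5%), against 11.6% of the 11024 windows of genes tested and 17.9% of all 32851 windows. CCAAT was found in 36 of the 47 windows of mitosis genes (76.6%), against 38.4% of windows of genes tested. Both were found in 66% of windows of mitosis genes, against 4.78% of windows of genes tested. Of the 45 matches of TTTGAA in mitosis genes 33 (73.3%) began between -50 and +50 of the start, against 22.5% of 1367 matches in the other genes tested. Of the 80 matches of CCAAT 38 (47.5%) began between -100 and -26, near the 41.1% of 6583 matches in the other genes tested. Ect2, Prc1 and Bub3 have overlapping windows, so sites of these genes were counted more than once. Windows of DNA replication genes, which are transcribed earlier in the cell cycle, had TTTGAA in 10.5% and CCAAT in 55.3%. TTTAAA was found in 19.1% of windows of mitosis genes and in 9.12% of windows of genes tested.

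Since the study concerns E proteins, which bind the E-box CANNTG as dimers, its letters were searched too. CANNTG was found in 63.8% of windows of mitosis genes and in 62.6% of windows of genes tested. The forms CAGCTG (17% of windows of mitosis genes, 15% of windows of genes tested) and CAGGTG (8.51% and 16.8%) are contained in CANNTG. A match is a description of letters and not a bound site.

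**Figure D1:**
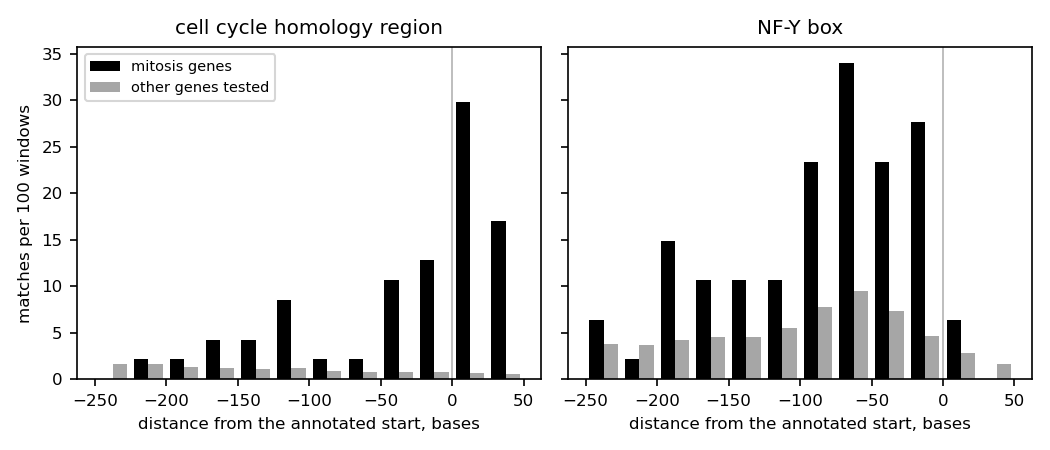
Matches of the cell cycle genes homology region (TTTGAA, left) and of the NF-Y box (CCAAT, right) per 100 promoter windows, in bins of 25 bases by distance from the annotated start, for the 47 windows of mitosis genes (black) and windows of other genes tested (grey). In mitosis genes the homology region is most frequent around the start and the NF-Y box before it.

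The mitosis genes were lowest in the wild-type rescue. Their FPKM summed to 1645 and 1900 in the TAFH-deleted clones, 888 and 1007 in wild-type clones, 1468 and 1475 in the knockout libraries, and 1673 and 1681 in the control libraries. The median mitosis gene had 29.4 and 39.3 FPKM in the TAFH-deleted clones, 17.3 and 19 FPKM in wild-type clones, 27.9 and 27.7 FPKM in the knockout libraries, and 33.4 and 33.1 FPKM in the control libraries. In each of the 52 genes both wild-type rescue clones lay below all 6 other libraries, a pattern shown by 23.3% of all genes tested. The lowest of the 8 values was that of wild-type clone 1 in 49 genes and that of wild-type clone 2 in 3 genes, and the highest was that of TAFH-deleted clone 2 in 39 genes. In bulk RNA, fewer dividing cells and less RNA per cell cannot be told apart.

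**Figure D2:**
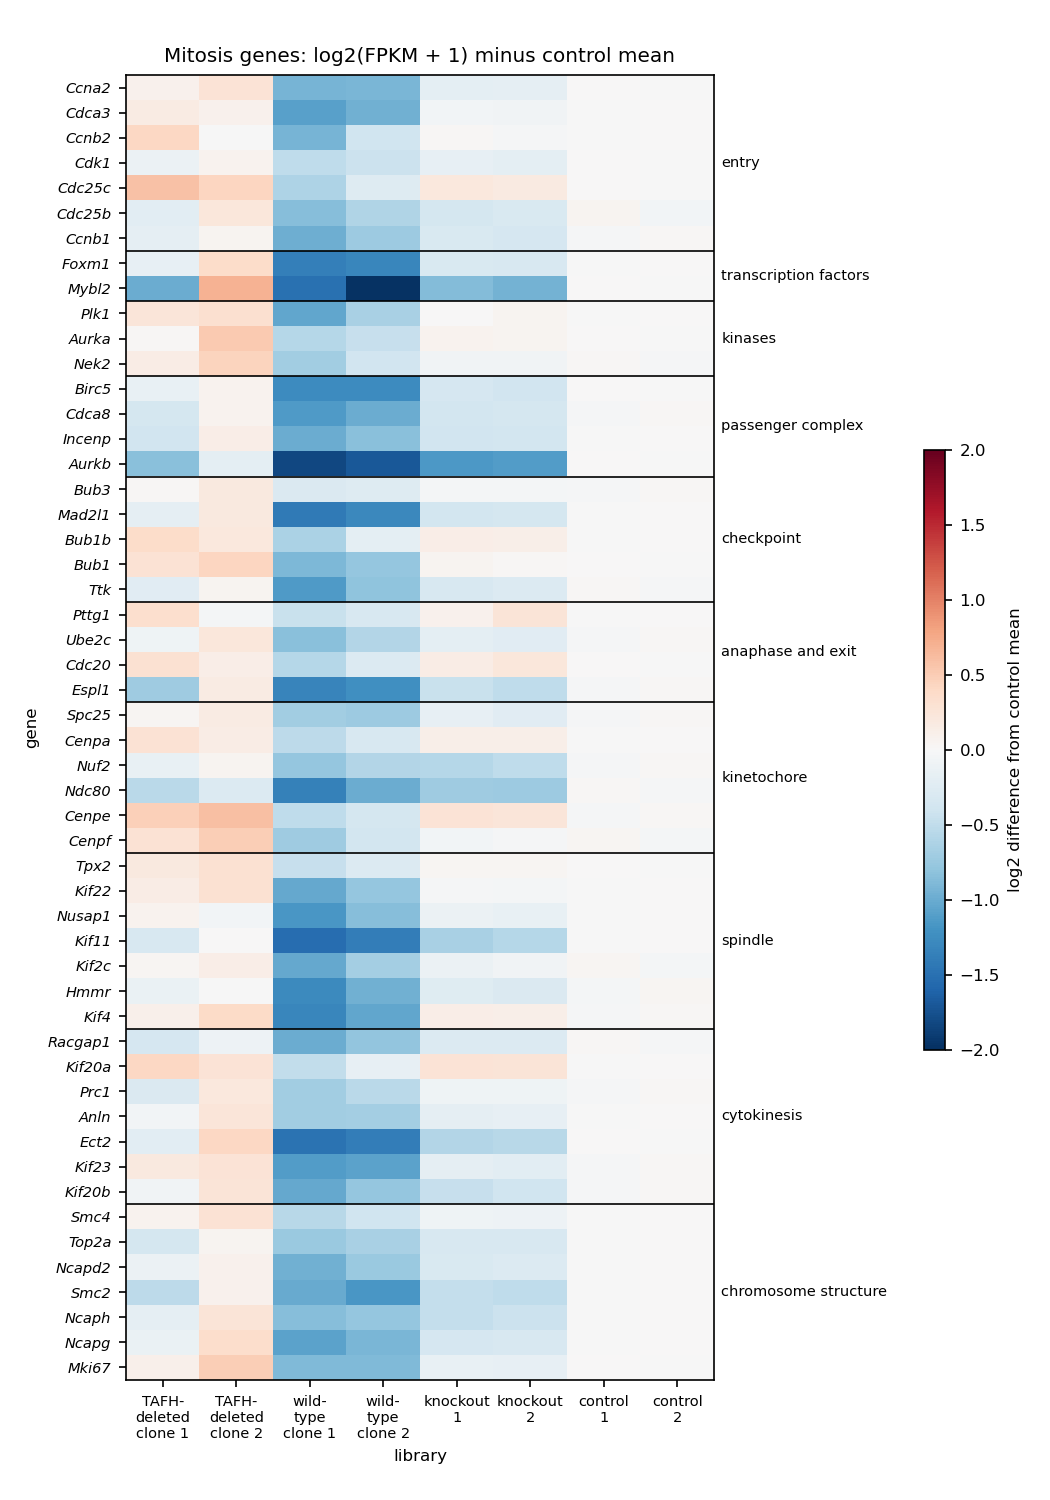
Difference of log2(FPKM + 1) from the mean of the control libraries for the 52 mitosis genes (rows, grouped by role) in each of the 8 libraries (columns), blue for lower and red for higher. Both wild-type rescue columns are blue in all 52 rows, and TAFH-deleted clone 2 is redder than clone 1 in most rows.

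As the steps between low FPKM values imply, the libraries hold between 14266000 and 17304000 fragments. The knockout pair and the control pair each agree within sampling noise (chi-square per low gene, 1 for independent reads, 0.610 ± 0.031 SE in the knockout pair and 0.775 ± 0.035 in the control pair, against 2.38 ± 0.095 between the TAFH-deleted clones and 1.64 ± 0.064 between the wild-type rescue clones). Each of these pairs was counted as 1 sample, which leaves 6 samples, and the spread comes from the rescue clones alone. Separate cultures are not stated in the labels, and p-values cover the spread between these samples, which may be technical. The mouse gene, listed as Taf4a, had 14.7 and 19.2 FPKM in the TAFH-deleted clones, 14.5 and 15 FPKM in wild-type clones, 12.5 and 12.4 FPKM in the knockout libraries, and 11.1 and 11.5 FPKM in the control libraries. It does not check the labels, since the deleted exons are not given and reads of the human transgene may be counted. Of 8 fibroblast markers 7 passed 1 FPKM, with sums between 664 and 805 FPKM (Thy1, the lowest, did not), while 0 of 6 endothelial markers and 0 of 5 muscle markers, 1 of 6 epithelial markers (Krt19) and 1 of 6 leukocyte markers (Cd68) did.

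Between the rescue forms, all 52 mitosis genes were higher in the TAFH-deleted than in the wild-type rescue (56% of genes tested were), and 10 of them passed the test. These were Ccna2, Cdca3, Birc5, Mad2l1, Bub1, Spc25, Kif22, Kif11, Kif4 and Kif23, whereas 0.931% of all genes tested were called higher and 1.69% lower. The test was limma on log2(FPKM + 1), two-sided, with Benjamini-Hochberg adjustment over 12025 genes, and the adjusted p of these genes lay between 0.0389 and 0.0498. The median difference was 0.87 on the log2(FPKM + 1) scale, against 0.06 over all genes tested. It was 0.74 for TAFH-deleted clone 1 and 1.03 for clone 2, each against the mean of the wild-type rescue. The libraries of the groups did not overlap in any of the 52 genes (37.1% of genes tested were higher without overlap), and 51 had an unadjusted limma p under 0.05 (16.5% of genes tested, higher), all but Mybl2. The difference was at least 2-fold in 18 genes (2.6% of genes tested). The calls rest on the spread between clones: the test called 0 of the 52 without wild-type clone 1 and 0 without wild-type clone 2, but 52 without TAFH-deleted clone 1 and 51 without TAFH-deleted clone 2. Over all genes tested, these fits called 0%, 0%, 32% and 23.3% higher in the same order.

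**Figure D3:**
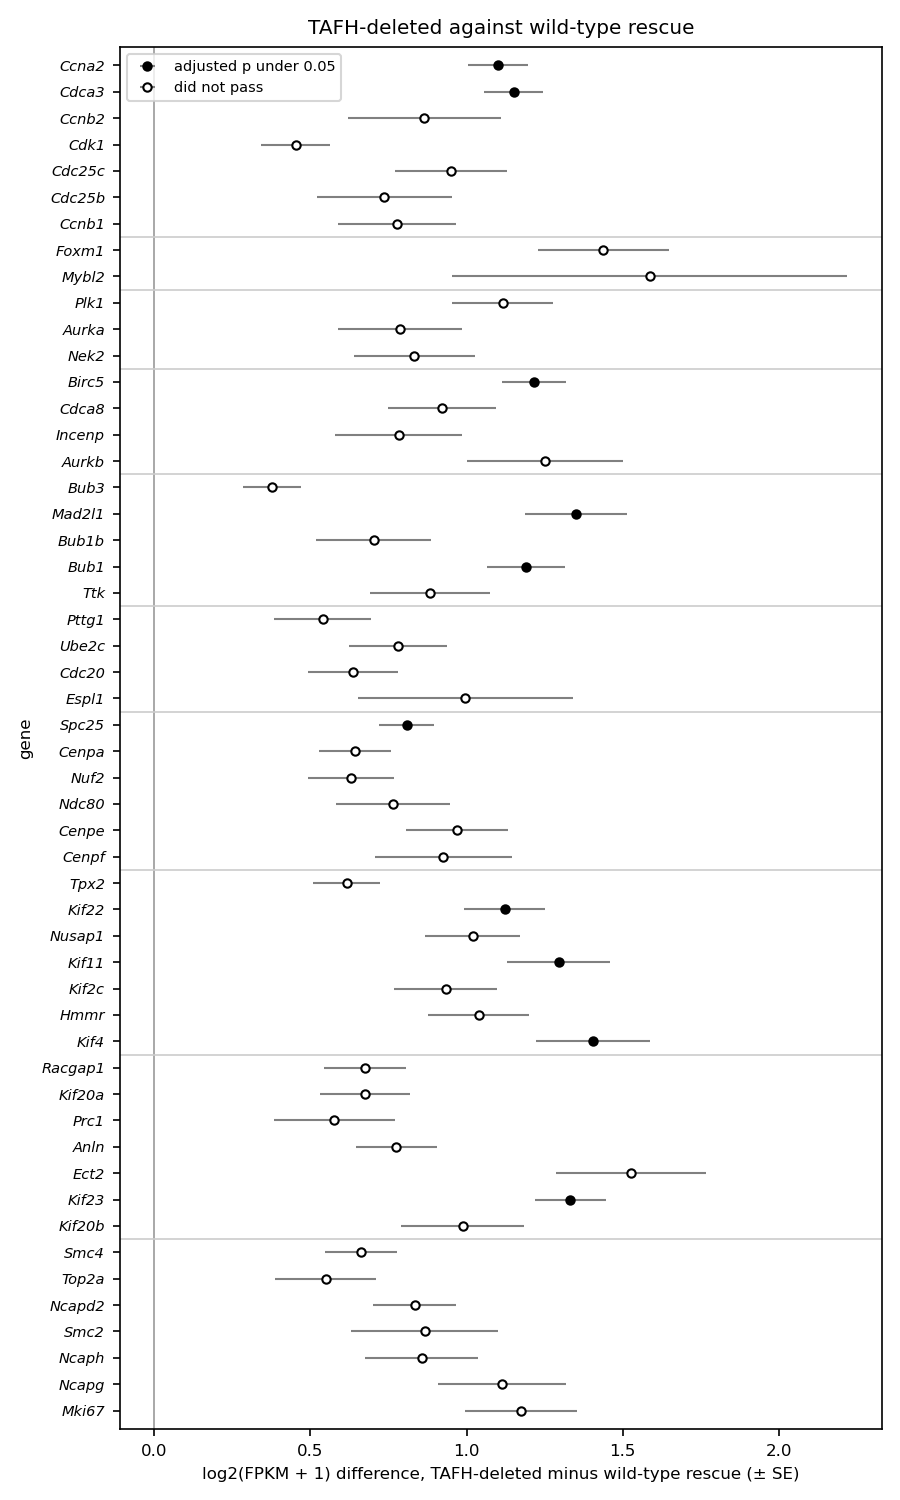
Difference of log2(FPKM + 1), TAFH-deleted minus wild-type rescue, with its standard error from limma (n = 2 clones each), for the 52 mitosis genes grouped by role. Filled points passed an adjusted p of 0.05, and all 52 points lie above 0.

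Of the 7 genes of mitotic entry, 2 passed the test between the rescue forms. Ccna2 encodes cyclin A2, a partner of cyclin-dependent kinases from S phase into mitosis, and was listed at chromosome 3, 36451527 to 36470918 in mm9, a locus that overlaps Exosc9. It had 55.1 and 62.7 FPKM in the TAFH-deleted clones, 26.6 and 27.1 FPKM in wild-type clones, 45.3 and 45.6 FPKM in the knockout libraries and 52.1 and 51.7 FPKM in the control libraries. The wild-type rescue clones stood apart at about the same level, and the difference between the rescue forms was 1.10 ± 0.096 (SE, adjusted p = 0.0398). Its neighbour Exosc9, an exosome subunit, had 45.4 and 52.1 FPKM in the TAFH-deleted clones and 38.1 and 37 FPKM in wild-type clones. Cdca3, a trigger of mitotic entry (chromosome 6, 124780193 to 124783719), had 49.5 and 46.9 FPKM in the TAFH-deleted clones, 20.1 and 22.2 FPKM in wild-type clones, 42.4 and 42 FPKM in the knockout libraries and 44 and 44.2 FPKM in the control libraries. Its 6 libraries outside the wild-type rescue lay close together, and the difference between the rescue forms was 1.15 ± 0.0943 (SE, adjusted p = 0.0389). Among the 5 that did not pass, Cdk1, the kinase itself, differed least, with 33.2 and 38.2 FPKM in the TAFH-deleted clones, 25.1 and 26.5 FPKM in wild-type clones, 32.2 and 31.6 FPKM in the knockout libraries and 36.4 and 35.9 FPKM in the control libraries. Its difference between the rescue forms was 0.45 ± 0.11 (SE, adjusted p = 0.0971), and those of the cyclins Ccnb1 and Ccnb2 were 0.78 and 0.86 on the log2 scale. The phosphatases that activate CDK1, Cdc25b and Cdc25c, differed by 0.74 and 0.95.

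Neither of the transcription factors of the list passed the test, although their differences were among the largest. Foxm1, which drives late cell cycle genes, had 27.2 and 39.8 FPKM in the TAFH-deleted clones, 11.3 and 11.8 FPKM in wild-type clones, 24.6 and 24.3 FPKM in the knockout libraries and 30.6 and 30.6 FPKM in the control libraries. The TAFH-deleted clones lay on either side of the control libraries and above the wild-type rescue clones, with a difference between the rescue forms of 1.44 ± 0.211 (SE, adjusted p = 0.059). Mybl2, the gene of B-Myb, had 3.91 and 14.8 FPKM in the TAFH-deleted clones, 2.48 and 1.47 FPKM in wild-type clones, 4.32 and 4.07 FPKM in the knockout libraries and 8.83 and 8.67 FPKM in the control libraries. TAFH-deleted clone 1 was below the knockout libraries and clone 2 above the control libraries, and Mybl2 was the 1 mitosis gene that differed at least 2-fold between clones of a group. The difference between the rescue forms was 1.59 ± 0.632 (SE, adjusted p = 0.196), and wild-type clone 2 held 87 Mybl2 fragments, the fewest of any mitosis gene in any library.

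None of the 3 centrosome and spindle kinases passed. Plk1, which acts from entry to cytokinesis, had 38.4 and 40.8 FPKM in the TAFH-deleted clones, 15.4 and 20.4 FPKM in wild-type clones, 32.8 and 33.6 FPKM in the knockout libraries and 32.5 and 32.6 FPKM in the control libraries. The knockout and control libraries shared a level, and the rescue forms differed by 1.12 ± 0.163 (SE, adjusted p = 0.059). Aurka, the Aurora kinase of the spindle poles, had 30.1 and 43.1 FPKM in the TAFH-deleted clones, 19.6 and 21.3 FPKM in wild-type clones, 31.2 and 30.9 FPKM in the knockout libraries and 29.7 and 29.5 FPKM in the control libraries. TAFH-deleted clone 1 lay at the level of knockout and control while clone 2 lay above them, and the rescue forms differed by 0.79 ± 0.199 (SE, adjusted p = 0.103). Nek2, a centrosome kinase, differed by 0.83 on the log2 scale.

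Of the 4 genes of the chromosomal passenger complex, which corrects wrong attachments and guides cytokinesis, Birc5 (survivin) passed. Birc5 (chromosome 11, 117710550 to 117717057) had 51.9 and 60.2 FPKM in the TAFH-deleted clones, 23.5 and 23.5 FPKM in wild-type clones, 45.4 and 43.9 FPKM in the knockout libraries and 58.2 and 57 FPKM in the control libraries. The wild-type rescue clones were at 1 level, and the difference between the rescue forms was 1.21 ± 0.103 (SE, adjusted p = 0.0389). Cdca8, the gene of borealin, had 35.2 and 47.3 FPKM in the TAFH-deleted clones, 19.9 and 22.2 FPKM in wild-type clones, 34.7 and 34.9 FPKM in the knockout libraries and 44.3 and 45.7 FPKM in the control libraries, and a difference between the rescue forms of 0.92 ± 0.173 (SE, adjusted p = 0.0739). Incenp, the scaffold, differed by 0.78. Aurkb, the kinase of the complex, had 22.4 and 35.7 FPKM in the TAFH-deleted clones, 10.8 and 11.9 FPKM in wild-type clones, 17.8 and 18.4 FPKM in the knockout libraries and 41.1 and 40.6 FPKM in the control libraries. It was highest in the control libraries, with no overlap with any other group, and the rescue forms differed by 1.25 ± 0.251 (SE, adjusted p = 0.0778).

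Among the 5 spindle checkpoint genes, Mad2l1 and Bub1 passed. Mad2l1, the gene of Mad2, which binds Cdc20 at unattached kinetochores (chromosome 6, 66485461 to 66490985), had 32.8 and 42.9 FPKM in the TAFH-deleted clones, 13.5 and 14.7 FPKM in wild-type clones, 28.7 and 29.1 FPKM in the knockout libraries and 37.3 and 37.7 FPKM in the control libraries. The TAFH-deleted clones lay on either side of the control libraries, and the difference between the rescue forms was 1.35 ± 0.164 (SE, adjusted p = 0.0496). Bub1, a kinetochore kinase (chromosome 2, 127625935 to 127657595), had 25.4 and 28 FPKM in the TAFH-deleted clones, 10.7 and 11.6 FPKM in wild-type clones, 21.3 and 21 FPKM in the knockout libraries and 20.8 and 20.4 FPKM in the control libraries, and the rescue forms differed by 1.19 ± 0.126 (SE, adjusted p = 0.0443). The table lists Bub1 as transcripts of 4334 and 4337 bases, and which of them carried the value changed between libraries: the shorter had 0.000743 and 28 FPKM in TAFH-deleted clones 1 and 2, and 10.7 and 6 FPKM in wild-type rescue clones 1 and 2. With that transcript alone the Bub1 difference was -0.75, so the sum over transcripts is what the other Bub1 values rest on. Bub3, the highest of the checkpoint genes, had 51.5 and 58.4 FPKM in the TAFH-deleted clones, 41.5 and 42.5 FPKM in wild-type clones, 49.7 and 49.8 FPKM in the knockout libraries and 50.1 and 51.8 FPKM in the control libraries. Its difference of 0.38 ± 0.0917 (SE, adjusted p = 0.0977) was the smallest of the 52. Bub1b (BubR1) and the kinase gene Ttk (Mps1) differed by 0.70 and 0.88.

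None of the 4 genes of anaphase and mitotic exit passed. Pttg1, the gene of securin, had 65.8 and 50.2 FPKM in the TAFH-deleted clones, 37.6 and 41 FPKM in wild-type clones, 55.1 and 61.9 FPKM in the knockout libraries and 51.5 and 51.7 FPKM in the control libraries. TAFH-deleted clone 2 was below both knockout libraries, and the rescue forms differed by 0.54 ± 0.155 (SE, adjusted p = 0.122). Ube2c, the ubiquitin-conjugating enzyme of the anaphase-promoting complex, had 44.9 and 55.8 FPKM in the TAFH-deleted clones, 26.2 and 31.5 FPKM in wild-type clones, 41.4 and 40.8 FPKM in the knockout libraries and 46.7 and 48.7 FPKM in the control libraries, with a difference between the rescue forms of 0.78 ± 0.156 (SE, adjusted p = 0.0778). Cdc20, an activator of that complex whose locus overlaps Elovl1, differed by 0.64, and Espl1, the gene of separase, by 1.00.

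Of the 6 kinetochore genes, Spc25 passed, which encodes a subunit of the Ndc80 complex that holds microtubules. Spc25 (chromosome 2, 69031951 to 69044247) had 43.5 and 47.6 FPKM in the TAFH-deleted clones, 25.8 and 25.3 FPKM in wild-type clones, 37.8 and 36.2 FPKM in the knockout libraries and 41.7 and 43 FPKM in the control libraries. Its rescue forms differed by 0.81 ± 0.0888 (SE, adjusted p = 0.0453). Cenpa, the histone H3 variant of centromeres, had 46 and 41.6 FPKM in the TAFH-deleted clones, 25.6 and 29.9 FPKM in wild-type clones, 40.6 and 40.8 FPKM in the knockout libraries and 37.3 and 37.5 FPKM in the control libraries, and the rescue forms differed by 0.64 ± 0.117 (SE, adjusted p = 0.0707). Nuf2 and Ndc80, partners of Spc25, differed by 0.63 and 0.76, the kinesin gene Cenpe by 0.97 and Cenpf by 0.93.

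Of the 7 spindle genes, Kif22, Kif11 and Kif4 passed. Kif22, a kinesin on chromosome arms (chromosome 7, 134171244 to 134185934), had 41.7 and 46.2 FPKM in the TAFH-deleted clones, 17.9 and 21.5 FPKM in wild-type clones, 36.9 and 36.4 FPKM in the knockout libraries and 37.3 and 37.5 FPKM in the control libraries. Its difference between the rescue forms was 1.12 ± 0.129 (SE, adjusted p = 0.0468). Kif11, the motor that pushes the spindle poles apart (chromosome 19, 37450892 to 37496349), had 21.7 and 27.3 FPKM in the TAFH-deleted clones, 8.86 and 9.8 FPKM in wild-type clones, 17 and 18.1 FPKM in the knockout libraries and 27.1 and 27.3 FPKM in the control libraries, and the rescue forms differed by 1.30 ± 0.165 (SE, adjusted p = 0.0497). TAFH-deleted clone 2 and the control libraries shared the highest Kif11 level, and the knockout libraries lay between them and the wild-type rescue clones. Kif4, a kinesin of chromosomes and the central spindle (chromosome X, 97821403 to 97922610), had 19.4 and 23.8 FPKM in the TAFH-deleted clones, 6.77 and 8.29 FPKM in wild-type clones, 19.9 and 19.8 FPKM in the knockout libraries and 17.9 and 18.3 FPKM in the control libraries. The rescue forms differed by 1.41 ± 0.182 (SE, adjusted p = 0.0498). Kif4 is the 1 mitosis gene on the X chromosome, whose 381 tested genes had a median difference of 0.59 between the rescue forms and of -0.55 between wild-type rescue and knockout, with 53 called higher in the TAFH-deleted rescue. The part of the chromosome in the Kif4 value was not tested. Tpx2, which activates Aurora A on the spindle, had 39.8 and 43 FPKM in the TAFH-deleted clones, 25 and 28.4 FPKM in wild-type clones, 35.5 and 35.8 FPKM in the knockout libraries and 35 and 34.4 FPKM in the control libraries. The rescue forms differed by 0.62 ± 0.107 (SE, adjusted p = 0.0677) in the sum of its 5 transcripts and by -0.195 in the transcript with the highest mean, and FPKM moved between its transcripts from library to library. Nusap1, Kif2c and Hmmr, whose products bind spindle microtubules, differed by 1.02, 0.93 and 1.04.

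Of the 7 cytokinesis genes, Kif23 passed, the motor subunit of centralspindlin. Kif23 (chromosome 9, 61765084 to 61794606) had 27.7 and 29.3 FPKM in the TAFH-deleted clones, 10.5 and 10.9 FPKM in wild-type clones, 21.2 and 20.7 FPKM in the knockout libraries and 23.7 and 24.4 FPKM in the control libraries. Both TAFH-deleted clones were above all other libraries, and the rescue forms differed by 1.33 ± 0.113 (SE, adjusted p = 0.0389). Racgap1, the other subunit, had 41.1 and 48.6 FPKM in the TAFH-deleted clones, 25.6 and 29.8 FPKM in wild-type clones, 43.1 and 43 FPKM in the knockout libraries and 52.7 and 51.5 FPKM in the control libraries, with the rescue forms differing by 0.68 ± 0.132 (SE, adjusted p = 0.0754). Kif20a, a kinesin that carries the passenger complex to the midzone, had 52.5 and 47.3 FPKM in the TAFH-deleted clones, 27.4 and 34.7 FPKM in wild-type clones, 47.4 and 47 FPKM in the knockout libraries and 39 and 39.2 FPKM in the control libraries. The rescue forms differed by 0.68 ± 0.144 (SE, adjusted p = 0.0834), and its listed locus overlaps Brd8 and Cdc23. Ect2, which activates RhoA for the contractile ring, had the largest difference of the group, 1.53 ± 0.241 (SE, adjusted p = 0.0619). Prc1, Anln and Kif20b differed by 0.58, 0.77 and 0.99.

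None of the 7 genes of chromosome structure passed. Smc4, a condensin subunit, had 53 and 61.8 FPKM in the TAFH-deleted clones, 33.8 and 37.9 FPKM in wild-type clones, 47.4 and 47.1 FPKM in the knockout libraries and 50.3 and 50.4 FPKM in the control libraries, and the rescue forms differed by 0.66 ± 0.116 (SE, adjusted p = 0.0685). Top2a, the topoisomerase that untangles sister chromosomes, had 39.5 and 52.7 FPKM in the TAFH-deleted clones, 29.9 and 31.9 FPKM in wild-type clones, 40.3 and 40.6 FPKM in the knockout libraries and 50.7 and 50.9 FPKM in the control libraries. Its rescue forms differed by 0.55 ± 0.162 (SE, adjusted p = 0.127). Smc2 and the condensin I subunits Ncapd2, Ncaph and Ncapg differed by 0.87, 0.83, 0.86 and 1.11, and Mki67, the gene of the proliferation marker Ki-67, by 1.18.

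**Figure D4:**
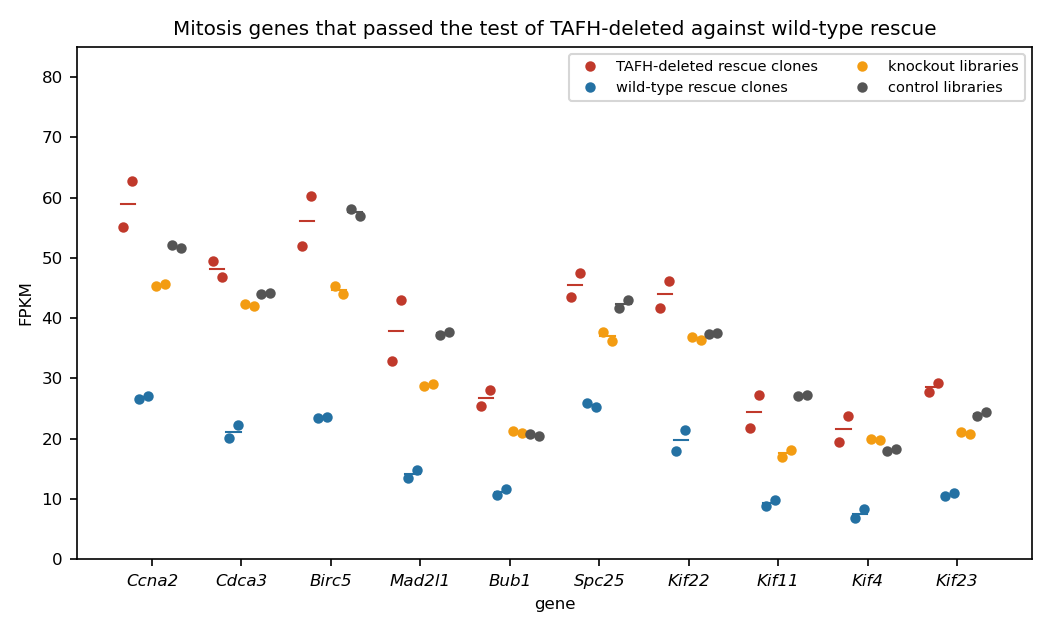
FPKM in each library (points) with the mean of each pair (lines) for the 10 mitosis genes that passed the test between the rescue forms, with TAFH-deleted rescue, wild-type rescue, knockout and control from left to right. The blue points of the wild-type rescue lie under all other points of the same gene, as low as 6.77 FPKM for Kif4.

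The next question is on which side of the knockout each rescue form lay. Wild-type rescue was below knockout in all 52 mitosis genes, with a median difference of -0.62 (all genes tested -0.04) and of -0.72 for clone 1 and -0.52 for clone 2. With limma, 0 of the 52 were called at an adjusted p of 0.05, as for 0% of genes tested, 30 had an unadjusted p under 0.05 and were lower (7.42% of genes tested), and the lowest adjusted p was 0.207, for Cdca3. In 54.7% of all genes tested wild-type rescue was lower than knockout by any amount, and the libraries did not overlap in any of the 52 (45.2% of genes tested, lower). The authors' deposited table, which tests transcripts with Cuffdiff, calls 45 of 59 tested transcripts of mitosis genes lower and 1 higher, a transcript of Ect2. Of all 14106 transcripts tested there, 11.7% were called lower and 14.1% higher. The difference reached 2-fold in Kif4 (-1.30) and Foxm1 (-1.02), against 1.1% of genes tested, and was smallest in Nuf2 (-0.15). The limma test called 42 lower without TAFH-deleted clone 1 (15.8% of genes tested) and 42 lower without TAFH-deleted clone 2 (15.7%).

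TAFH-deleted rescue was above knockout in 51 of 52 mitosis genes, or 50 with quantile normalization or median-ratio scaling, with 55.7% of all genes tested higher. The exception was Pttg1, at -0.03, and in 39 the libraries did not overlap (31.4% of genes tested, higher). The median difference was 0.26 (all genes tested 0.03), with 0.17 for clone 1, which was higher in 43 genes, and 0.39 for clone 2, which was higher in 50. Limma called 0 of the 52 (0% of genes tested), and 3 had an unadjusted p under 0.05 and were higher (Ccna2, Kif23 and Nuf2, against 2.3% of genes tested). The authors' deposited table calls 0 of 59 tested transcripts in either direction. The limma count in this comparison depended on which TAFH-deleted clone was left out. It was larger without clone 1 than without clone 2, and so was the share over all genes tested. Wild-type and TAFH-deleted rescue share the knockout libraries as their reference here. In 41 of the 52 genes both TAFH-deleted clones were above and both wild-type rescue clones below the mean of the knockout libraries. This pattern was shown by 16.6% of genes tested, and the test of the difference between the rescue forms is the one given first. The 11 others were Aurka, Cdc20, Espl1, Incenp, Kif4, Mybl2, Prc1, Pttg1, Racgap1, Smc2 and Top2a.

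Between knockout and control the mitosis genes differed less than between the rescue forms in their median. Knockout was below control in 40 of 52 mitosis genes, with 54.9% of all genes tested lower, and in 38 without overlap (49.6% of genes tested, lower); it was above control in 12, which became 15 with quantile normalization and 14 with median-ratio scaling. The median difference was -0.19 (all genes tested -0.03). Limma called 0 of the 52 (0% of genes tested), and 3 had an unadjusted p under 0.05 and were lower (Aurkb, Ndc80 and Nuf2, against 6.85% of genes tested). The authors' deposited table calls 27 of 54 tested transcripts of mitosis genes lower and 5 higher, those of Bub1b, Cdc20, Cenpe, Kif20a and Kif4. Of all 14051 transcripts tested there, 31.1% were called lower and 22.7% higher. Aurkb was the 1 mitosis gene at least 2-fold lower in knockout (-1.13, against 5.76% of genes tested), followed by Mybl2 (-0.91), Ndc80 (-0.72) and Kif11 (-0.60). The highest were Kif20a (0.26) and Cenpe (0.26). By role, 0 of 4 passenger genes and 0 of 7 chromosome genes were higher in knockout, and 2 of 3 kinases and 2 of 4 exit genes were. Without TAFH-deleted clone 1 limma called 9 lower (14.3% of genes tested), and without TAFH-deleted clone 2 it called 9 lower (13.8%), counts near those shares.

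Against control, TAFH-deleted rescue was higher in 34 and lower in 18 mitosis genes (35 and 17 with quantile normalization), with 48.4% of all genes tested higher, and a median difference of 0.10. Clone 1 had a median of -0.07, with 25 genes higher, and clone 2 of 0.20, with 45 genes higher, so the clones lay on either side of control. Limma called 0 of the 52 higher (0% of genes tested) and 0 lower (0.557% of genes tested), and 0 had an unadjusted p under 0.05 (3.76% of genes tested higher, 8.69% lower). Without TAFH-deleted clone 1 it called 5 higher and 0 lower (9.92% and 15.7% of genes tested). Without TAFH-deleted clone 2 it called 1 higher and 5 lower (12.6% and 17.4%). Wild-type rescue was below control in all 52 (56.2% of genes tested), without overlap in any (47.2%), with a median difference of -0.85 (all genes tested -0.04) and 16 genes at least 2-fold lower (4.63% of genes tested). Limma called 0 of the 52 (0% of genes tested), 39 had an unadjusted p under 0.05 and were lower (9.31% of genes tested), and the lowest adjusted p was 0.102, for Birc5. It called 44 lower without TAFH-deleted clone 1 (18.3% of genes tested) and 44 lower without TAFH-deleted clone 2 (18%).

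Clones of a form were not alike. TAFH-deleted clone 2 was higher than clone 1 in 43 of 52 mitosis genes, with a median difference of 0.23 (all genes tested 0.01), and wild-type clone 2 higher than clone 1 in 49 of 52, with a median of 0.16. Between the knockout libraries 26 and between the control libraries 33 of 52 were higher in the library numbered 2. The share of possible read starts in use, which limits a level where reads pile up, had a median over mitosis genes of 19.1% and 28.7% in the TAFH-deleted clones, 13.5% and 14.8% in the wild-type clones, 19% and 18.9% in the knockout libraries and 26.2% in both control libraries.

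Other genes of the cell cycle were read from lists that hold none of the 52. Of 66 other kinetochore and spindle genes 60 were tested. By the mean of the clones, all 60 were higher in the TAFH-deleted than in the wild-type rescue (56% of genes tested), with a median difference of 0.75. Clone 1 was higher in 53 and clone 2 in 60, and the libraries did not overlap in 52 (37.1% of genes tested, higher). Limma with Benjamini-Hochberg adjustment called 2 of the 60 (0.931% of genes tested, higher). These were the kinesin gene Kif15 and Shcbp1, a partner of centralspindlin. Shcbp1 had 38 and 37.1 FPKM in the TAFH-deleted clones, 13.8 and 13.3 FPKM in wild-type clones, 28.1 and 27.4 FPKM in the knockout libraries and 40.03 and 41 FPKM in the control libraries, a difference between the rescue forms of 1.40 ± 0.093 (SE, adjusted p = 0.0366). Kif15 had 16.9 and 17.2 FPKM in the TAFH-deleted clones, 6.61 and 6.73 FPKM in wild-type clones, 12.1 and 11.8 FPKM in the knockout libraries and 15 and 15.4 FPKM in the control libraries, a difference of 1.23 ± 0.139 (SE, adjusted p = 0.0461). Wild-type rescue was below knockout in 57 of the 60 (54.7% of genes tested), with a median of -0.45. Highest in level were Pmf1, a kinetochore subunit, with 36.8 and 46 FPKM in the TAFH-deleted clones and 21.3 and 22 FPKM in wild-type clones, and Cks1b, a partner of CDKs, with 69.5 and 72.3 FPKM in the TAFH-deleted clones and 53.2 and 52.0 FPKM in wild-type clones.

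The 15 tested subunits of the anaphase-promoting complex, which are needed in mitosis but also outside it, had a median difference between the rescue forms of 0.16, with 13 higher, 0 called by limma and 2 at an unadjusted p under 0.05. Anapc13, the highest, had 117 and 90.9 FPKM in the TAFH-deleted clones and 73.2 and 95.1 FPKM in wild-type clones, which overlap. All 16 tested genes of cohesin and condensin II were higher in the TAFH-deleted rescue, with a median of 0.55. The 2 called, the cohesin genes Smc1a (0.90 ± 0.075, SE, adjusted p = 0.0389) and Stag2 (0.71 ± 0.088, SE, adjusted p = 0.0496), are both on the X chromosome, whose median is given beside Kif4. Smc1a had 49.4 and 49.1 FPKM in the TAFH-deleted clones and 25.7 and 26.3 FPKM in wild-type clones, and Stag2 had 46.3 and 42.5 FPKM in the TAFH-deleted clones and 26.8 and 26.5 FPKM in wild-type clones. Rad21, the highest cohesin gene, differed by 0.36. Of 11 genes of the MuvB and DREAM complexes 9 were higher, with a median of 0.36, 0 called by limma and 3 at an unadjusted p under 0.05. E2f4, the highest of them, had 43 and 58.8 FPKM in the TAFH-deleted clones and 38.5 FPKM in both wild-type rescue clones. Between the rescue forms, 3465 of all 12025 genes tested had an unadjusted limma p under 0.05, in either direction. Of all genes tested, 56% were higher in the TAFH-deleted rescue and 0.931% were called higher.

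The median level of the 40 DNA replication genes was also lowest in the wild-type rescue. It was 23.1 and 42.2 FPKM in the TAFH-deleted clones, 18 and 16.8 FPKM in wild-type clones, 21.5 and 20.9 FPKM in the knockout libraries and 36 and 35.7 FPKM in the control libraries. Wild-type rescue was below knockout in 38 of the 40 (54.7% of genes tested) and above it in 2. Knockout was below control in all 40 (54.9% of genes tested), with a median difference of -0.76, beside -0.19 for the mitosis genes. TAFH-deleted clone 1 was level with knockout (median -0.01) and clone 2 was above it (0.99), beside 0.17 and 0.39 for the mitosis genes. Between the rescue forms all 40 were higher in the mean of the TAFH-deleted clones (56% of genes tested), with a median of 0.79. The median was 0.40 for clone 1, which was higher in 36 genes, and 1.27 for clone 2, which was higher in 40. In 34 genes the libraries did not overlap (37.1% of genes tested, higher). Limma called 0 of the 40 (0.931% of genes tested, higher), and 19 had an unadjusted p under 0.05 (16.5% of genes tested, higher). Mcm4, the helicase subunit with the highest level, had 48 and 72.4 FPKM in the TAFH-deleted clones, 37.7 and 34 FPKM in wild-type clones, 45.1 and 44.8 FPKM in the knockout libraries and 52.9 and 52.3 FPKM in the control libraries. The difference between the lists was not tested.

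**Figure D5:**
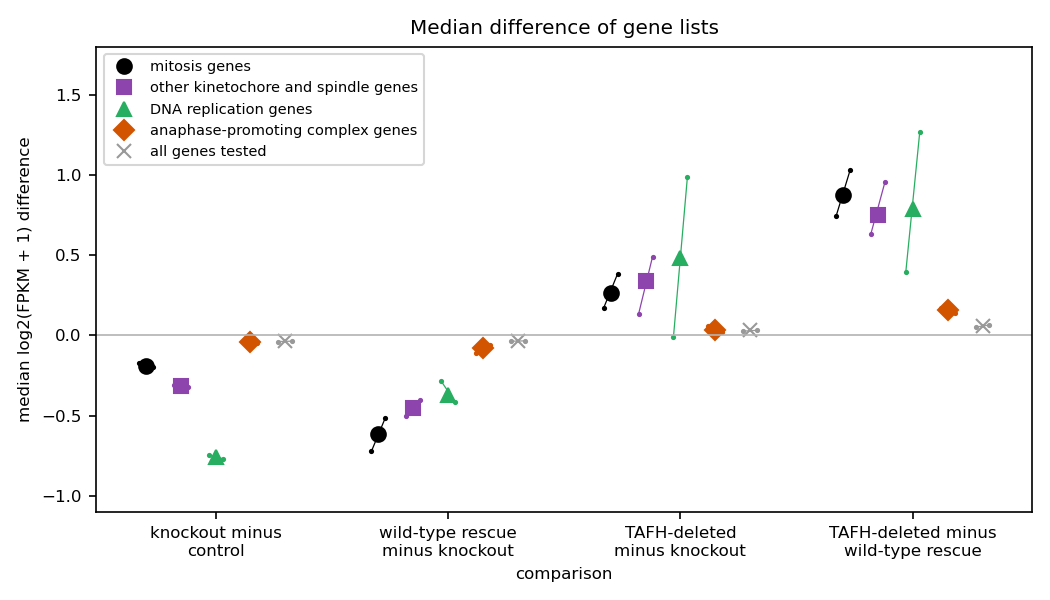
Median difference of log2(FPKM + 1) of each gene list (large symbols) in 4 comparisons, with the median of each library of the first-named group against the mean of the other group (small dots joined by a line). DNA replication genes have the lowest median in knockout minus control and the widest gap between the TAFH-deleted clones, and mitosis genes the lowest median in wild-type rescue minus knockout.

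Within the mitosis genes TTTGAA did not separate the differences. The 32 genes with it had a median difference between the rescue forms of 0.87 and the 12 without it of 0.91. Those without TTTGAA include Ccnb1, Cenpe and Birc5, which have the TTTAAA variant in their full windows. Between wild-type rescue and knockout the medians were -0.62 with TTTGAA and -0.63 without it. Kif23, with TTTGAA beside its start, and Birc5, whose printed stretch holds no CCAAT and neither form of the homology region, differed by 1.33 and 1.21. Both were printed for their small p between the rescue forms, so this pair cannot show whether the motif matters.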

How the data were processed

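Messenger RNA of 8 libraries of mouse embryonic fibroblasts was sequenced, per the labels' protocols with an Illumina mRNA-Seq kit whose strand setting is not given in the sources used here. Per the submitters' processing notes, CASAVA 1.8, TopHat, Cufflinks and Cuffdiff were used on mm9. The authors deposited FPKM per library for 30028 RefSeq transcripts, with transcript lengths in bases (per the file headers) and, for 3 comparisons, p-values and q-values. The q-values are quoted only as the authors' own. Loci are printed as the table lists them on mm9; it does not say whether starts count from 0 or 1.

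FPKM of a gene's transcripts were summed, and 47 symbols turned into dates were restored. The depth implied by the steps of low FPKM left 96.4% to 97.8% of low values whole within 0.05 fragments. Genes that reached 1 FPKM in 2 or more libraries and had a longest transcript of at least 300 bases (184 shorter ones left out) were tested with limma-trend (limma 3.58.1, R 4.3.3; tables with Python 3.11.15 and pandas 2.3.3) on log2(FPKM + 1), a scale that understates changes of low genes. All groups entered 1 fit, without covariates, of 6 samples with 2 residual and 2.15 prior degrees of freedom; p-values were two-sided and adjusted by Benjamini-Hochberg at 0.05. Same-numbered libraries of different groups did not deviate together (correlations between -0.0776 and 0.0571), so the numbers were not used as pairs. A lone sample (control, knockout) is assumed to vary like the rescue clones. Counting errors only are covered by the depth given.

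The mitosis genes and all other lists were chosen with earlier results of these data known. Genes were given in full where they passed in any comparison or had one of the 2 highest mean levels of their role, and in other lists where they passed or had the highest level; Cdk1, Aurkb, other members with single values and the names beside counts were chosen after their values were seen. Alternatives were another pseudocount, no filter, quantile and median-ratio scaling, 8 libraries with and without a replicate block, the groups compared alone, the highest transcript alone, each library left out and, chosen after seeing the data, a correction for read starts in use.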

Additional observations from a re-analysis of the deposited data

Results flagged for a closer look

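In 41 of the 52 mitosis genes both TAFH-deleted clones lay above and both wild-type rescue clones below the mean of the knockout libraries. Against knockout itself, limma called 0 of the 52 in either form. The pattern was shown by 16.6% of all genes tested. The difference between the forms was tested directly, with limma and Benjamini-Hochberg adjustment over all genes tested, and 10 of the 52 passed. Both forms share the knockout libraries, and each form is represented by 2 clones whose origin is not stated.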

How the results depend on the processing

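All 52 mitosis genes were higher in the TAFH-deleted than in the wild-type rescue under every alternative other than the highest transcript alone, which gave 50 and reversed Tpx2 (-0.1950) and Bub1 (-0.7451) among the genes given in full. The limma count of 10 was 5 with a pseudocount of 0.1, with quantile normalization, with the highest transcript alone and with the correction for read starts, 6 with median-ratio scaling and 0 without the filter on low values. Birc5, Ccna2, Cdca3 and Kif23 were called in each of these except the last. Over all genes tested, these fits called 0.299%, 0.432%, 0.166%, 0.482%, 0.349% and 0% higher in the same order, against 0.931% in the main fit. Without a filter more genes of low level enter the fit and its adjustment. With all 8 libraries as samples, without and with the replicate block, limma called 51 and 51 of the 52 between the rescue forms, 5 and 5 in knockout against control, 37 and 34 in wild-type rescue against knockout, 4 and 2 in TAFH-deleted rescue against knockout, 44 and 42 in wild-type rescue against control, and 4 and 2 in TAFH-deleted rescue against control. Over all genes tested, in the direction of the mitosis genes called, these fits called 22.6% and 19%, 14.3% and 10.8%, 14.4% and 10.5%, 4.13% and 1.25%, 15.2% and 10.8%, and 9.89% and 6.06%. With only the groups compared it called 7 between the rescue forms (0.615% of genes tested, higher), 41 in wild-type rescue against knockout (15.2%, lower), 43 in wild-type rescue against control (17.4%, lower) and 0 in TAFH-deleted rescue against knockout and against control (0% of genes tested), while knockout against control could not be fitted, for lack of residual degrees of freedom.

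Leaving out 1 library at a time, the count ranged from 0 to 52 between the rescue forms (median difference 0.7445 to 1.03), 0 to 9 in knockout against control (-0.198 to -0.175), 0 to 42 in wild-type rescue against knockout (-0.7243 to -0.5151), 0 to 24 in TAFH-deleted rescue against knockout (0.1722 to 0.3855), 0 to 44 in wild-type rescue against control (-0.9475 to -0.7526) and 0 to 6 in TAFH-deleted rescue against control (-0.0651 to 0.1993). In every comparison the highest count came from a fit without a TAFH-deleted clone, where the share called over all genes tested also rose above the main fit. These counts therefore do not measure the mitosis genes alone. The 6 in TAFH-deleted rescue against control adds genes called higher and genes called lower. A lone clone left is assumed to vary like the others. The adjusted p of the 10 called genes ranged from 0.000188 to 0.808 over all alternatives. The median of knockout against control was -0.1525 with quantile normalization, -0.1569 with median-ratio scaling and -0.2533 with the correction for read starts. The cause of these shifts was not tested. Whether the number of clones or the depth limits the calls was not tested.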
